A study of Oryza sativa with 8 samples.

Results

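GLO1, GDCSH and CAT-A are rice genes of photorespiration and peroxide removal: GLO1 makes a glycolate oxidase, GDCSH the H protein of the glycine decarboxylase complex, and CAT-A a catalase. They were found by synonym in the RefSeq rice annotation, as 3 of 15641 genes on the array, and carry 5 of its 17769 probes listed with 1 gene. These are probes (array features) 10129 and 21658 for GLO1, 4010 for GDCSH, and 7173 and 10189 for CAT-A. They were chosen by their ratios of hormone-treated over untreated callus, which were already known. Those ratios are therefore given as a description, with no p-value, and support nothing by themselves.

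All RNA came from callus, a mass of dividing undifferentiated cells, raised from the scutellum of the japonica rice Nipponbare. The callus grew for 30 d on Murashige and Skoog medium with the synthetic auxin 2,4-D at 10 µM and then spent 3 d with 50 µM of abscisic acid (ABA, which acts in drought responses and seed dormancy) or of gibberellin (GA, which promotes growth and germination). Untreated callus was the partner on every array, so all groups share the auxin medium. Each hormone has 4 two-colour arrays: ABA arrays 24 and 20 and GA arrays 4 and 5 hold the treated RNA in Cy3, and ABA arrays 19 and 23 and GA arrays 7 and 8 hold it in Cy5. The labels do not say whether arrays came from separate cultures or shared an untreated sample, so the spread between arrays may be technical.

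Values are log2 ratios of treated over untreated, and errors are the SD over n = 4 arrays, dye bias included. As deposited, arrays of opposite dye orientation ran against each other (r from −0.60 to −0.51 for ABA and from −0.82 to −0.70 for GA), so the table was read as 1 fixed dye ratio, Cy5 over Cy3, and arrays with the treated RNA in Cy3 were turned. Arrays of 1 hormone and 1 dye orientation then correlated at 0.870 to 0.957, and those of opposite orientation at 0.506 to 0.816. This direction, and log10 as the deposited scale, are not stated in the labels. They were taken from the usual convention for ratios from this maker's arrays, and the software actually used is not known, so both are assumptions. Were the convention the opposite, every sign below would turn, ABA and GA alike. Signal intensities are not analysed here, so how far each probe stood above background is unknown.

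Photorespiration starts when the carbon-fixing enzyme rubisco takes up oxygen in place of carbon dioxide and forms phosphoglycolate. Glycolate oxidase turns the resulting glycolate into glyoxylate in the peroxisome and releases hydrogen peroxide, which catalase breaks down. In mitochondria the glycine decarboxylase complex splits glycine, passing its parts on a lipoyl arm of the H protein, and the ammonia set free is captured again by glutamine synthetase and ferredoxin-dependent glutamate synthase. The pathway is best known from green leaves in the light. The H protein also serves one-carbon metabolism, and catalase serves other peroxisomal oxidations, in tissue that is not green.

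GLO1 had a low ratio under GA on probe 10129 and a ratio near 0 on its other probe. On GA arrays 4 and 5 probe 10129 read −1.57 and −1.51, and on arrays 7 and 8 it read −1.58 and −1.74. The mean was −1.60 ± 0.10, or 3.03-fold less RNA in GA-treated than in untreated callus. All 4 values lay far from 0 relative to their spread, and both dye orientations gave the same picture (means of −1.54 and −1.66). Only 30 of the 17782 probes tested had a lower GA mean. In bulk RNA, fewer cells of a type and less RNA per cell cannot be told apart.

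Under ABA probe 10129 split by dye. It read −0.01 on both arrays 24 and 20, with the treated RNA in Cy3, and −0.50 and −0.60 on arrays 19 and 23, with it in Cy5. The mean of −0.28 ± 0.31 was smaller than its SD, and the orientations did not overlap. Under ABA the ratio of this GLO1 probe was thus near 0 in one orientation and below 0 in the other. The ABA and GA arrays did not overlap, with the highest GA value (−1.51) below the lowest ABA value (−0.60). How many of all probes part in this way was not counted. In the limma fit described below, 50 percent of all probes were called different between the hormones.

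The second GLO1 probe, 21658, showed no such fall. It read −0.13 and −0.08 on GA arrays 4 and 5, and 0.02 and 0.20 on arrays 7 and 8, with a mean of 0.00 ± 0.15. Under ABA it read −0.01 on both arrays 24 and 20, and 0.16 and 0.20 on arrays 19 and 23 (mean 0.09 ± 0.11). For both hormones its sign followed the dye of the treated RNA, below 0 in Cy3 and above 0 in Cy5.

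The gap between the 2 GLO1 probes under GA was among the widest on the array. Probe 10129 read below probe 21658 by 1.43 on arrays 4 and 5 alike, by 1.60 on array 7 and by 1.95 on array 8. Of 1709 genes with 2 probes, 1 had a larger difference between their GA means than GLO1 (1.60), and the median gene had 0.12. Under ABA the GLO1 probes differed by 0.36, and 7.78 percent of these genes differed by more. Both probes are listed under the same gene, and which transcript or stretch each detects was not tested, so the fall is a statement about probe 10129.

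**Figure D1:**
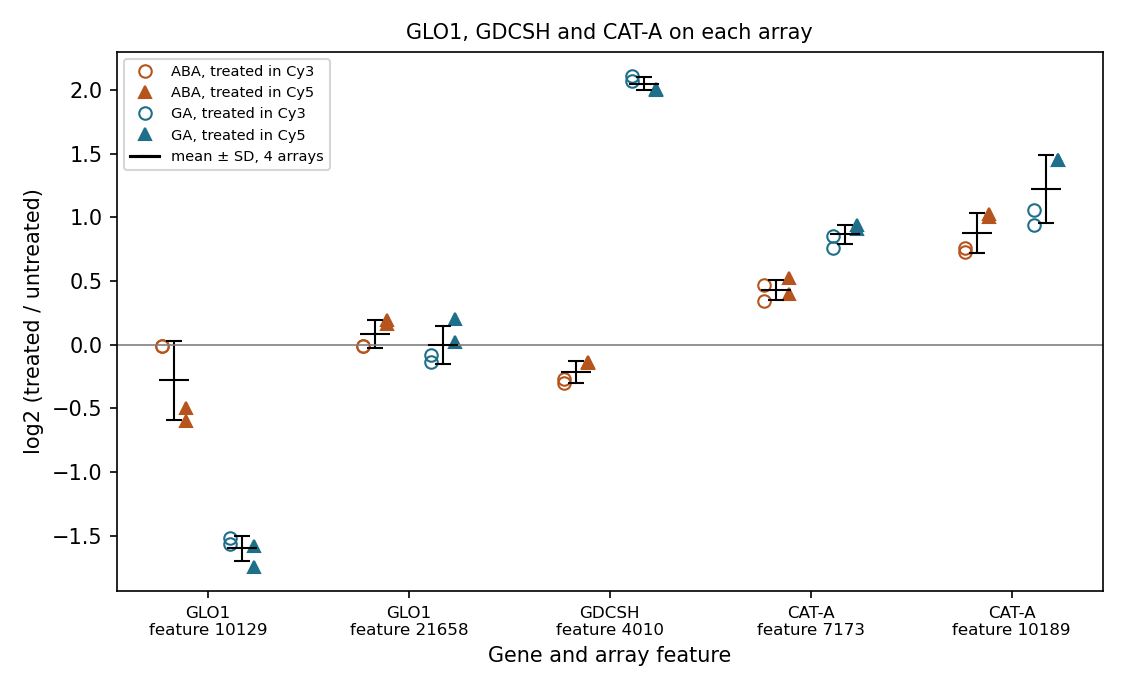
Log2 ratio of treated over untreated callus (vertical axis) for the 5 probes of GLO1, GDCSH and CAT-A (horizontal axis). Each point is 1 array, open circles have the treated RNA in Cy3 and filled triangles in Cy5, and black bars give the mean ± SD over 4 arrays. GDCSH stands near 2 under GA and just below 0 under ABA, CAT-A is above 0 under both hormones, and the 2 GLO1 probes part under GA (−1.60 and 0.00).

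**Figure D2:**
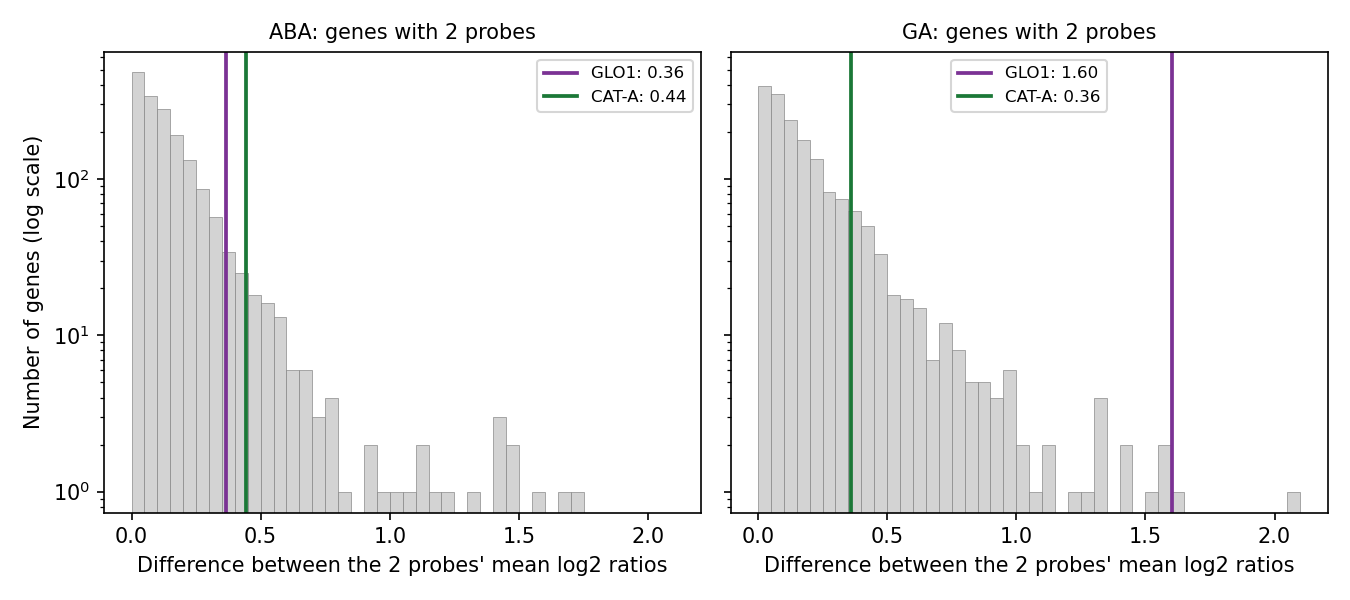
Number of genes (vertical log axis) by the absolute difference between their 2 probes' mean log2 ratios (horizontal axis), for ABA on the left and GA on the right, over 1709 genes. Vertical lines mark GLO1 and CAT-A: GLO1 lies at the far right under GA (1.60), and the other 3 lines lie between 0.36 and 0.44.

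GDCSH, on its single probe 4010, had the highest ratio of the 3 genes. On GA arrays 4 and 5 it read 2.07 and 2.11, and on arrays 7 and 8 it read 2.00 and 2.01. The mean of 2.05 ± 0.05 is 4.14-fold more RNA in GA-treated callus, with a spread between arrays that is small beside it and little trace of the dye (means of 2.09 and 2.01). Only 20 of the 17782 probes had a higher GA mean.

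Under ABA the GDCSH probe was slightly below 0 on every array. It read −0.27 and −0.30 on arrays 24 and 20, and −0.15 and −0.14 on arrays 19 and 23, for a mean of −0.21 ± 0.09 (1.16-fold less). The 2 hormones thus stood on opposite sides of untreated callus for GDCSH, with no overlap between any ABA and any GA array and a difference ABA minus GA of −2.26. The share of all probes without such overlap was not counted. The limma fit described below called 50 percent of all probes different between the hormones, so nothing is read from the separation. By size, 20.8 percent of all probes had a larger ABA mean.

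CAT-A lay above untreated callus on all 8 arrays on both of its probes. Probe 10189 read 1.06 and 0.94 on GA arrays 4 and 5, and 1.45 on both arrays 7 and 8, with a mean of 1.22 ± 0.27 (2.34-fold). Under ABA it read 0.72 and 0.76 on arrays 24 and 20, and 1.001 and 1.02 on arrays 19 and 23, with a mean of 0.88 ± 0.16 (1.84-fold). For both hormones the Cy5 orientation gave the higher ratio, by 0.45 under GA and 0.27 under ABA, and the ranges of the hormones overlapped (lowest GA value 0.94, highest ABA value 1.02).

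Probe 7173 of CAT-A gave smaller ratios of the same sign. It read 0.86 and 0.76 on GA arrays 4 and 5, and 0.94 and 0.91 on arrays 7 and 8 (mean 0.87 ± 0.08, 1.82-fold). Under ABA it read 0.34 and 0.47 on arrays 24 and 20, and 0.52 and 0.40 on arrays 19 and 23 (mean 0.43 ± 0.08, 1.35-fold). Here every GA value lay above every ABA value, though the share of all probes without overlap was not counted. Nothing is read from this, as 50 percent of all probes were called different between the hormones in the limma fit. Probe 10189 exceeded probe 7173 on each of the 8 arrays, by 0.29 to 0.62 under ABA and by 0.18 to 0.54 under GA.

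The 2 CAT-A probes differed by 0.44 under ABA and 0.36 under GA, and 5.09 and 14.3 percent of genes with 2 probes differed by more. Within either dye orientation the mean of each CAT-A probe was higher under GA than under ABA. On probe 10189 these means were 0.999 against 0.74 in Cy3 and 1.45 against 1.01 in Cy5. On probe 7173 they were 0.81 against 0.40 in Cy3 and 0.92 against 0.46 in Cy5.

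In the limma fit over all 17782 probes, called at an adjusted p under 0.05, 2 of the 5 probes were called up and 2 down under ABA, beside 41.8 percent of all probes called (18 percent up, 23.7 percent down). Under GA 3 were called up and 1 down, beside 49 percent (26.2 percent up, 22.8 percent down). Both CAT-A probes were called up under both hormones, beside 3.63 percent of all probes. For either hormone 4 of the 5 probes had the same sign on all 4 arrays, beside 43.1 percent of probes under ABA and 50.1 percent under GA. Probe 21658 was called under neither hormone. The ABA falls were those of GDCSH and GLO1 probe 10129, the latter with a mean below its SD in size (−0.28 ± 0.31) and a split by dye. Whether that call holds without the dye term is not reported here. Nothing is read from these counts, since these ratios chose the genes, and calls at this threshold include many small shifts: the median size of a called change was 0.21 under ABA and 0.25 under GA. Called probes of at least 2-fold made up 1.36 percent under ABA and 2.04 percent under GA. The ABA calls include no probe of GLO1, GDCSH or CAT-A at that size, while under GA probes 10129, 4010 and 10189 passed it. Nothing is read from this either, as the same ratios chose the genes.

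**Figure D3:**
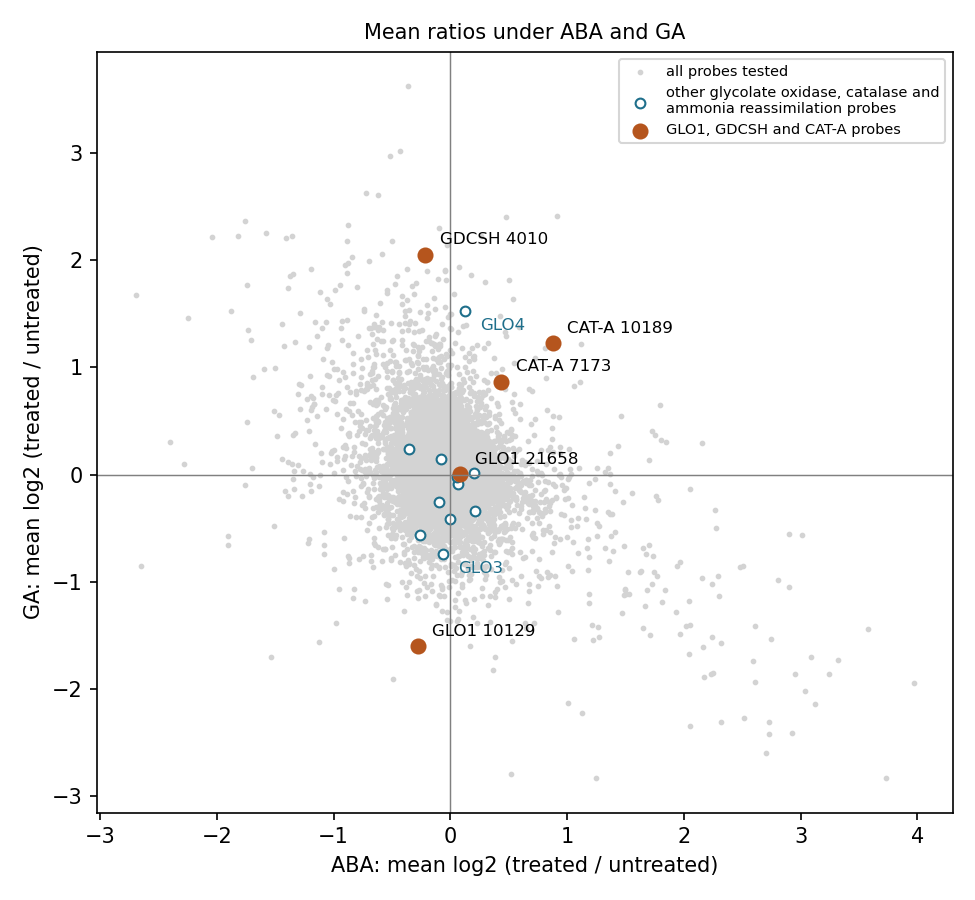
Mean log2 ratio under ABA (horizontal axis) against that under GA (vertical axis) for each of the 17782 probes tested (grey). Orange points are the GLO1, GDCSH and CAT-A probes, and open points are the other glycolate oxidase, catalase and ammonia reassimilation probes. Both ratios of CAT-A are above 0, while GDCSH and GLO1 probe 10129 lie above and below the cloud along the GA axis.

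The other genes of the pathway are all measured members of lists of symbols. Every photorespiration, ammonia and catalase probe is given. From the other lists called probes are named, up to 2 highest and 2 lowest means per hormone, so those were picked by their ratios. Where such a gene has a second probe that was not called under that hormone, it is given too. All lists were written with earlier results of these data known, so their p-values are no independent support. The other photorespiratory genes that the annotation names are glycolate oxidases, GLO3, GLO4 and GLO5, with 4 probes in all. Under GA 1 of these 4 probes rose and 2 fell, with a median of −0.18 against −0.01 over all probes. Of all probes 26.2 percent were called up and 22.8 percent down under GA. Under ABA 1 rose and 3 were not called (median 0.09 against 0.00), beside 18 percent up and 23.7 percent down over all probes. With so few probes nothing is read from these counts. Subunits of glycine decarboxylase other than GDCSH, serine hydroxymethyltransferase and the later enzymes of the pathway are not named in the annotation and were not analysed here.

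The glycolate oxidases moved apart under GA. GLO4, which in rice leaves acts together with GLO1, rose: it read 1.49 and 1.71 on arrays 4 and 5 and 1.40 and 1.49 on arrays 7 and 8. Its mean was 1.52 ± 0.13 (2.87-fold, limma adjusted p = 1.61e-08), opposite in sign to GLO1 probe 10129. GLO4 under ABA was at 0.13 ± 0.05 and was not called (limma adjusted p = 0.0543), although it passed with a dye term for each hormone (0.0248), on the ABA arrays alone (0.00199), with median centring (0.0392) and without GA array 5 or 7 (0.0181 and 0.0333). Its difference ABA minus GA was −1.39 (limma adjusted p = 2.12e-07). That contrast called 50 percent of all probes, 22.7 percent higher under ABA and 27.3 percent lower.

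GLO3 fell under GA and resembled GLO1 probe 10129 in its dye split under ABA. Its GA values were −0.68 and −0.69 on arrays 4 and 5 and −0.61 and −0.98 on arrays 7 and 8 (mean −0.74 ± 0.16, limma adjusted p = 1.37e-05). Under ABA it read 0.15 and 0.16 on arrays 24 and 20, against −0.21 and −0.35 on arrays 19 and 23. The ABA mean of −0.06 ± 0.26 was not called (limma adjusted p = 0.494), and ABA minus GA was 0.68 (limma adjusted p = 2.61e-04).

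GLO5 gave smaller values. Its probe 21381 fell under GA (−0.34 ± 0.05, limma adjusted p = 6.63e-06) and rose under ABA (0.21 ± 0.02, limma adjusted p = 2.89e-04), with a difference ABA minus GA of 0.55 (limma adjusted p = 2.87e-06). Its probe 10379 was called under neither hormone (−0.02 ± 0.05 and 0.06 ± 0.04; limma adjusted p = 0.537 and 0.149). Under GA, then, the glycolate oxidase probes ran from −1.60 for GLO1 probe 10129 through GLO3 and GLO5 to 1.52 for GLO4. GLO genes are related in sequence, and cross-hybridisation between them was not tested.

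**Figure D4:**
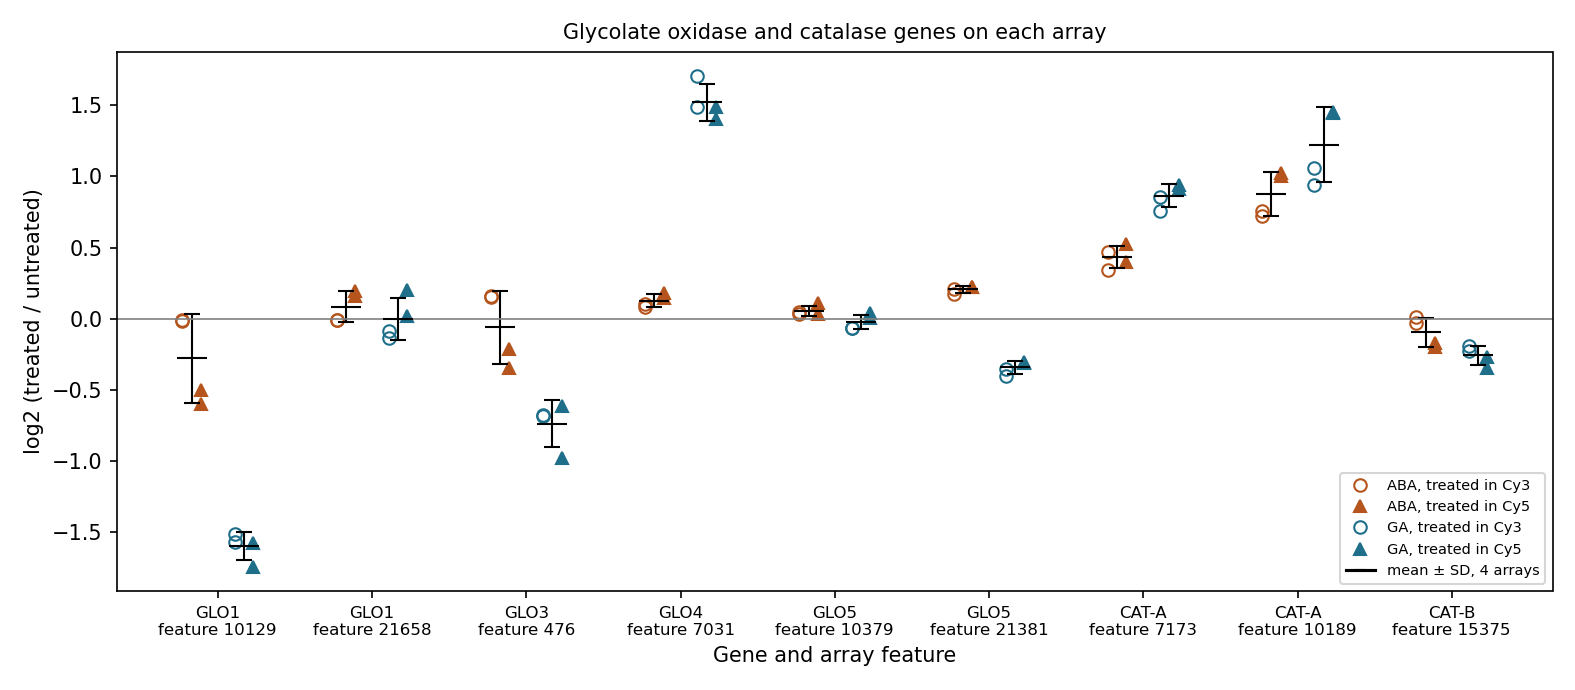
Log2 ratio of treated over untreated callus (vertical axis) for every probe of the glycolate oxidase genes GLO1, GLO3, GLO4 and GLO5 and of the catalase genes CAT-A and CAT-B (horizontal axis). Points are arrays, marked by hormone and by dye of the treated RNA, and bars give the mean ± SD over 4 arrays. GLO4 stands at 1.52 under GA while GLO3 and GLO1 probe 10129 stand below 0, and CAT-B lies below 0 under GA where CAT-A lies above.

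CAT-B, the other catalase the annotation names, did not follow CAT-A. It read −0.22 and −0.19 on GA arrays 4 and 5 and −0.34 and −0.27 on arrays 7 and 8 (mean −0.26 ± 0.07, limma adjusted p = 7.49e-05), a fall of 1.20-fold. Under ABA its mean was −0.10 ± 0.10 (limma adjusted p = 0.0265). That ABA call ended without the dye term (adjusted p = 0.180), with quantile or scale normalization (0.116 and 0.0592) and without any 1 of the 4 ABA arrays (0.0580 to 0.124). ABA minus GA was 0.16 (limma adjusted p = 0.0105; 0.0977 without the dye term).

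Genes that recapture ammonia moved in both directions. Of 6 probes for 4 genes, 2 rose and 2 fell under GA (median −0.04 against −0.01 over all probes, where 26.2 percent were called up and 22.8 percent down). Under ABA 1 rose and 2 fell (median −0.04 against 0.00, with 18 percent up and 23.7 percent down over all probes). Fd-GOGAT, the ferredoxin-dependent glutamate synthase, fell under GA (−0.57 ± 0.22, limma adjusted p = 1.46e-04). Its ABA mean was −0.26 ± 0.25 (limma adjusted p = 0.0182), with −0.05 in the Cy3 orientation and −0.46 in Cy5, and the call ended without the dye term (0.0975) or without array 19 or 23 (0.0545 and 0.0938). Its difference between hormones was 0.31 (limma adjusted p = 0.0302), and that call ended without the dye term (0.128) or without ABA array 24, 20 or 19 or GA array 4, 5 or 8 (0.0654 to 0.0924 with the array left out).

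Of the glutamine synthetases, the cytosolic GLN1-3 fell under GA (−0.41 ± 0.10, limma adjusted p = 1.46e-05) and stood at −0.01 ± 0.06 under ABA (0.924). GLN1-1, also cytosolic, rose under GA on probe 17519 (0.24 ± 0.04, limma adjusted p = 2.39e-04) and fell under ABA (−0.35 ± 0.09, 3.35e-05). Its probe 8632 was called under neither (−0.09 ± 0.03 and 0.06 ± 0.17; limma adjusted p = 0.160 and 0.316), although under GA it passed with a dye term for each hormone (0.0387). GLN2, the plastid enzyme that serves photorespiration in leaves, rose on probe 17042 under GA (0.15 ± 0.06, limma adjusted p = 0.00742) and on probe 7399 under ABA (0.20 ± 0.08, 0.00313). On the other probe in each case it was not called (0.01 ± 0.08 under GA and −0.08 ± 0.07 under ABA; limma adjusted p = 0.842 and 0.119), although probe 17042 passed under ABA on the ABA arrays alone (0.0193) and without GA array 8 (0.0477). None of these genes moved as far as GDCSH, CAT-A probe 10189 or GLO1 probe 10129 did under GA. GLO1, GDCSH and CAT-A were chosen by their ratios, so nothing is read from that order. Their remaining probes stood at 0.00 ± 0.15 (GLO1 probe 21658) and 0.87 ± 0.08 (CAT-A probe 7173) under GA.

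Other enzymes that remove peroxide or superoxide differed among themselves. In the first list, of 12 probes for 10 genes, 1 rose and 7 fell under ABA (5 fell without the dye term or with median centring, and 5 to 7 with 1 array left out; median −0.11 against 0.00 over all probes, where 18 percent were called up and 23.7 percent down). Under GA 1 rose and 3 fell (median −0.01 against −0.01). The ascorbate peroxidase genes APX1 (−0.56 ± 0.25, limma adjusted p = 1.08e-04) and APX6 (−0.41 ± 0.14, 3.40e-05) were lowest under ABA. The highest ABA ratio in the list was that of R1C-Prx, the seed-type peroxiredoxin with 1 catalytic cysteine, at 2.16 ± 0.13 (limma adjusted p = 8.49e-10).

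Under GA the same R1C-Prx fell (−1.61 ± 0.16, limma adjusted p = 4.08e-09), as did APX7 on probe 5068 (−0.23 ± 0.12, 3.66e-04) and APX8 (−0.22 ± 0.02, 0.00147), while APX2 rose on probe 21268 (0.45 ± 0.03, 9.69e-06). The second probes of APX7 (8371, −0.01 ± 0.24) and APX2 (7006, 0.02 ± 0.08) were not called under GA (limma adjusted p = 0.941 and 0.717). In a further list of 6 peroxide-removing genes on 7 probes, 3 rose and 0 fell under ABA, beside 18 percent up and 23.7 percent down over all probes. Under GA 2 rose and 3 fell, beside 26.2 and 22.8 percent. MDAR5, which recycles ascorbate, rose under GA (0.51 ± 0.20, limma adjusted p = 4.68e-06), and PRXIIF, a peroxiredoxin, rose under ABA (0.30 ± 0.15, 1.03e-04) and fell under GA (−0.25 ± 0.05, 2.10e-04). RMSOD1, a manganese superoxide dismutase, rose by 0.26 ± 0.20 under ABA (limma adjusted p = 9.93e-04) and by 0.12 ± 0.08 under GA (0.0464), and MDAR2 rose by 0.15 ± 0.18 under ABA (0.0185). PRXIIC fell under GA (−0.19 ± 0.19, limma adjusted p = 0.00202). The last 2 calls rest mostly on 1 dye orientation. MDAR2 under ABA averaged 0.30 with the treated RNA in Cy3 and −0.0003 in Cy5, and PRXIIC under GA −0.03 and −0.35. Whether they hold without the dye term is not reported here. ICL, the isocitrate lyase of the glyoxylate cycle, rose under ABA (0.42 ± 0.11, limma adjusted p = 2.01e-05) and fell under GA (−0.95 ± 0.10, 5.29e-08), in the opposite sense to GDCSH.

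Markers of other cell types also moved; over all probes 18 percent were called up and 23.7 percent down under ABA, and 26.2 and 22.8 percent under GA. Of 5 green tissue probes (4 genes), 3 rose under ABA, led by PSBW of photosystem II (0.48 ± 0.25, limma adjusted p = 5.13e-05) and including the chlorophyll-binding proteins CAB2R (0.18 ± 0.11, 0.0385) and CAB1R (0.12 ± 0.09, 0.0144). Under GA 3 fell: PSBW (−0.82 ± 0.11, limma adjusted p = 8.12e-07), OsrcaA1, a rubisco activase, on probe 14538 (−0.15 ± 0.09, 0.00200), and CAB1R (−0.10 ± 0.13, 0.0353). The second OsrcaA1 probe, 12345, was not called under GA (−0.01 ± 0.15, limma adjusted p = 0.923). CAB1R under GA averaged −0.19 with the treated RNA in Cy3 and 0.0004 in Cy5. The 5 green tissue means ran from −0.01 to 0.48 under ABA and from −0.82 to 0.14 under GA.

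All 3 shoot meristem probes, of homeobox genes, rose under GA and 2 fell under ABA, beside 26.2 and 23.7 percent of all probes. HOS9 (OSH71) was at 0.74 ± 0.07 under GA and −0.19 ± 0.05 under ABA (limma adjusted p = 1.07e-07 and 0.00130), OSH1 at 0.27 ± 0.19 and −0.30 ± 0.10 (0.00776 and 0.00615) and HOS3 (OSH15) at 0.11 ± 0.07 under GA (0.0410). The root marker OsCASP1, of the Casparian strip, rose under GA (1.81 ± 0.21, limma adjusted p = 8.99e-09) and was at −0.04 ± 0.12 under ABA (0.556). Of 7 embryo and seed probes 5 rose under ABA and 3 fell under GA, beside 18 and 22.8 percent of all probes. RAB16B was at 1.27 ± 0.22 and −1.52 ± 0.16 (limma adjusted p = 2.59e-06 and 4.77e-07) and EM at 1.25 ± 0.21 and −2.83 ± 0.14 (1.85e-06 and 7.78e-09). Of the other genes in that list rab25 fell under GA (−2.13 ± 0.26, limma adjusted p = 1.70e-08), and RAB16D and RAB16C had the smallest called rises under ABA (0.55 ± 0.24 and 0.70 ± 0.14, 1.31e-06 and 1.42e-06). Ratios give no level, so which of these markers are at or near 0 in the callus is unknown. Their part in the ratios of GLO1, GDCSH and CAT-A was not tested.

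The genes with the most similar values on the 8 arrays were sought among 2463 probes of named genes, by the root mean square difference of the log2 ratio, as a description. Nearest to CAT-A probe 10189 was LTP110-A, a lipid transfer protein, at a distance of 0.10, with 0.81 ± 0.26 under ABA and 1.18 ± 0.28 under GA. It was followed by PLA2-III, a phospholipase (0.25), and Chib3H-a (0.41). Nearest to GDCSH were OsCASP1 (0.26), 4CL-3 of phenylpropanoid synthesis (0.31; 0.18 ± 0.05 under ABA and 1.86 ± 0.08 under GA) and OsRR9, a cytokinin response regulator (0.33; −0.37 ± 0.11 and 1.63 ± 0.08).

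Nearest to GLO1 probe 10129 was IAA20, of the family that represses auxin responses, at 0.30. It read −0.03 ± 0.32 under ABA and −1.28 ± 0.23 under GA, and so shared both the low GA ratio and the wide ABA spread of GLO1. BGLU31, a beta-glucosidase (0.34), and GH3-8, which conjugates auxin (0.38; 0.06 ± 0.06 and −1.37 ± 0.07), came next. Likeness in these 8 arrays says only that the ratios lay close, since all points share the arrays and the 2 hormones.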

How the data were processed

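On 8 NIAS oligo arrays for rice, RNA was compared as treated over untreated callus, 4 arrays per hormone. The deposited values are LOWESS-normalized ratios of the 2 dyes, per the labels; the log10 scale is not stated by the authors and was assumed from the usual convention for this kind of array, and log10 values were multiplied by 3.32 to give log2. Nothing in the sources used here gives the software, background correction or spot filters. A label describes treated over untreated, but opposite dye orientations ran against each other, so treated-in-Cy3 arrays were turned.

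Of 22575 features, 17788 are listed with a gene, 17769 of them with 1. Exact zeros were set missing, and 3 values per hormone were required, leaving 17782 probes. No count or depth applies; the number of arrays limits the precision, with a median SE of 0.0396 for a hormone mean. limma 3.58.1 (R 4.3.3) fitted a mean per hormone and 1 shared dye term, with 5 residual and 3.93 prior degrees of freedom and Benjamini-Hochberg adjustment over all probes, and was tested on simulated data.

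The genes and lists were chosen with earlier results of these data known. Of 10 symbol lists 2 (peroxisome and fatty acid breakdown, lipoate and folate one-carbon) matched no name, 3 were added from annotation names (peroxide removal, isocitrate lyase and lipoyl synthase, the last not measured), and names from assembly ASM3414082v1 cover 2128 genes on 2470 probes. A growth-regulating factor with the synonym GS2 and an endoglucanase named GLU1 were taken out of the ammonia list. Every photorespiratory, ammonia and catalase probe is named. From other lists, up to 2 highest and 2 lowest called means per hormone are named, with any second probe of the gene that was not called.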

Additional observations from a re-analysis of the deposited data

Results flagged for a closer look

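GDCSH differed between the hormones in the sense that all 4 ABA arrays lay below 0 and all 4 GA arrays above (ABA minus GA −2.26); the difference was not tested, as its ratios chose the gene. For genes that were not chosen in this way, the difference ABA minus GA was tested in the limma fit, which called 50 percent of all probes. It passed at an adjusted p under 0.05 in these probes. Among glycolate oxidases it was −1.39 for GLO4, 0.68 for GLO3 and 0.55 for GLO5 probe 21381. The catalase CAT-B differed by 0.16. Among genes of ammonia capture it was 0.31 for Fd-GOGAT, 0.41 for GLN1-3 and −0.59 for GLN1-1 probe 17519. The GLN2 probes differed in opposite senses (0.19 on probe 7399 and −0.22 on probe 17042), and the call of probe 7399 ended without ABA array 19 or GA array 4 or 8 (limma adjusted p from 0.0501 to 0.0644). No array stood apart from the other 3 of its hormone by Dixon's criterion in the 32 sets of 4 values of the photorespiration, ammonia and catalase probes.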

How the results depend on the processing

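Unlike the opposite dye convention, which would turn ABA and GA alike, turning the GA arrays alone reverses every GA sign by construction. It gives GA means of 1.60 for GLO1 probe 10129, −2.05 for GDCSH, −0.87 and −1.22 for CAT-A probes 7173 and 10189, 0.74 for GLO3, −1.52 for GLO4, 0.34 for GLO5 probe 21381, 0.26 for CAT-B, 0.57 for Fd-GOGAT, 0.41 for GLN1-3, −0.24 for GLN1-1 probe 17519 and −0.15 for GLN2 probe 17042. ABA minus GA would then be −1.88 for GLO1 probe 10129, 1.84 for GDCSH, 1.30 and 2.10 for the CAT-A probes, −0.80 for GLO3, 1.65 for GLO4, −0.14 for GLO5 probe 21381, −0.35 for CAT-B, −0.82 for Fd-GOGAT, −0.42 for GLN1-3 and 0.071 for GLN2 probe 17042. The list counts under GA would be 2 up and 1 down for glycolate oxidases, 1 up and 0 down for CAT-B, and 3 up and 1 down for peroxide removal.

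Quantile normalization moved CAT-A probe 7173 to 0.53 under ABA, 0.75 under GA and −0.22 between hormones, and GDCSH to 2.28 under GA and −2.51 between hormones. The GLO1 values and those of CAT-A probe 10189 moved by less than their SD, dye bias included, under every scaling tried. With quantile normalization CAT-A probe 10189 stood at 0.99 under ABA and 1.15 under GA, and its ABA minus GA went from −0.35 to −0.16. Changes to the dye term could not move these means, since each hormone has equal numbers of arrays in both orientations. Keeping exact zeros left them unchanged. With 1 array left out, GDCSH under GA ran from 2.02 to 2.07, GLO1 probe 10129 from −1.68 to −1.55 under GA and from −0.32 to −0.22 under ABA, and CAT-A probe 10189 from 1.21 to 1.27 under GA and from 0.85 to 0.90 under ABA.

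Over all probes the fit called 7430 for ABA (3209 up, 4221 down), 8715 for GA and 8889 for the difference. Without the dye term ABA fell to 4443 (1775 up, 2668 down) and the higher-under-ABA calls of the difference to 2439; at an adjusted p under 0.01 ABA rises fell to 2054. Called and at least 2-fold were 242 for ABA (140 up, 102 down), 362 for GA (229 up, 133 down) and 820 for the difference (309 up, 511 down).

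The glycolate oxidase list gained a second ABA rise (2, GLO4) with a dye term for each hormone, with each hormone on its own arrays and with median centring, and ran from 1 to 2 with 1 array left out. The ABA fall of CAT-B was lost (0) without the dye term and with quantile or scale normalization, and ran from 0 to 1 with 1 array left out. Ammonia falls under ABA dropped to 1 without the dye term (1 to 3 with 1 array left out). With gene means ammonia rises were 0 under ABA and 1 under GA. Peroxide removal gained a second rise (2) under ABA with each hormone on its own arrays and under GA with a dye term for each hormone (1 to 2 with 1 array left out). The cause of these changes was not tested. Fits of each hormone on its own arrays give no difference between hormones. Each ratio already pairs treated with untreated callus on 1 array. ABA arrays were not paired with GA arrays, since the labels do not say whether they shared cultures or untreated samples.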
